A study of Homo sapiens with 6 samples.

Results

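The interferon regulatory factors (IRFs) form a family of transcription factors, and 8 of them are described here: IRF1, IRF2, IRF3, IRF4, IRF5, IRF7, IRF8 and IRF9. These genes and the gene lists below were chosen with earlier results of these data known. The 8 genes were given by name and matched to rows of the count table by their numeric gene identifiers, and the matching used no values. All 8 were found among 23459 rows, and all 8 passed the low-count filter that left 12010 genes for testing. The cells were Raji, an established Epstein-Barr virus-positive Burkitt lymphoma line of germinal centre origin. The tested libraries carried the lentiviral short hairpin RNA (shRNA) OBF1sh1 against OBF1, and the control libraries carried the non-targeting hairpin SHC002, with 3 poly(A) RNA libraries per group. Cells of both groups were exposed to virus for 5 days and then selected with puromycin at 3 μg/ml for 7 days. OBF1 is the product of POU2AF1, a coactivator of B cells that Oct proteins recruit to octamer DNA. Only 1 hairpin was used against it, so effects of the hairpin sequence and of lower OBF1 cannot be told apart. Whether replicates were separate cultures is not stated in the labels, so p-values rest on a spread between libraries that may be only technical.

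IRF proteins share an N-terminal DNA-binding domain with a repeat of tryptophans and recognise elements built around GAAA, the interferon-stimulated response element (ISRE). IRF3, IRF5 and IRF7 are held in the cytoplasm until sensors of nucleic acids activate kinases that phosphorylate them, whereas IRF9 works in a complex with STAT2 downstream of interferon receptors. IRF4 and IRF8 are largely restricted to immune cells, bind composite sites with the Ets proteins PU.1 or SPIB or with BATF and JUN proteins, and steer germinal centre and plasma cell fate.

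Promoter sequence is shown for 4 members, because OBF1 acts through the octamer and because IRF genes are themselves known targets of STAT, NF-κB and IRF proteins. RefSeq windows (GRCh38.p14) of 250 bases before a transcript start were found for 5 of the 8 members. They were searched on both strands for the octamer ATGCAAAT, the ISRE GAAANNGAAA, the Ets-IRF composite element (EICE) GGAANNGAAA, the STAT site (GAS) TTCNNNGAA, the TATA box TATAAA and the NF-κB consensus. Capitals mark the matches, and no matches overlapped. The first pair of sequences is the whole upstream window of the member with the largest fold change (IRF4, chr6:391502-391751, plus strand) and of a member with a small one (IRF1, chr5:132490774-132491023, minus strand). The next pair is a match with 10 bases on either side, in 1 of the 4 windows of IRF5 (chr7:128940627-128940656, plus strand) and in the window of IRF9 (chr14:24161192-24161220, plus strand).
IRF4: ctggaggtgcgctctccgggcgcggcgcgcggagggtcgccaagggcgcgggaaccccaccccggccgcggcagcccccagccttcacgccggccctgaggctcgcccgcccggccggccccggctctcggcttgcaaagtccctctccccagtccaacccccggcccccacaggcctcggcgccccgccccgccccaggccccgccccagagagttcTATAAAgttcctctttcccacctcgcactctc
IRF1: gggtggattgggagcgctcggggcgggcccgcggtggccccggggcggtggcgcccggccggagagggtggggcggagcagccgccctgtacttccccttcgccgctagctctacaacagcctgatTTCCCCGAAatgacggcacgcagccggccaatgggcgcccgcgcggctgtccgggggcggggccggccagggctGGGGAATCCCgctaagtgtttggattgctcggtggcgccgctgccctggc
IRF5: gtctagccacTTTCGTTTCCcctggggccg
IRF9: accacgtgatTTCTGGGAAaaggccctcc

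The IRF4 window held a TATA box, at bases 32 to 27 before the start, and no other match. The IRF1 window held a GAS match at bases 124 to 116 and an NF-κB match at bases 50 to 41 before the start. The IRF5 window that the stretch comes from held this EICE match, on the reverse strand at bases 33 to 24, and a TATA box at bases 188 to 183, and the IRF9 window held a GAS match at bases 63 to 55. The 2 windows of IRF8 and the other 3 of IRF5 held none of the motifs, and none of the 9 windows searched held the octamer or the ISRE. The windows of IRF5 and IRF8 belong to transcript starts within those genes, at least 895 bases from the gene start for IRF5 and 3668 for IRF8, so the gene starts of both were not searched. Among all 35116 promoter windows in the table, 1.63% held the octamer, 3.02% the ISRE, 2.41% the EICE, 6.57% the GAS, 5.21% the NF-κB consensus and 10.7% the TATA box. These letters describe the windows and do not show binding.

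The targeted transcript was lower, as POU2AF1 averaged 242 ± 1.66 normalised CPM (reads scaled to library size with TMM factors) in OBF1 shRNA libraries and 514 ± 2.15 CPM in control libraries (SD, n = 3 each). Of the Oct genes, POU2F2 averaged 303 CPM in OBF1 shRNA and 121 CPM in control libraries, and POU2F1 averaged 52.8 CPM in OBF1 shRNA and 63.0 CPM in control libraries. Libraries held between 29569281 and 32612429 counted reads. All 8 listed B cell markers passed the filter, 7 of them higher and CD79B lower, with summed levels of 4423 to 4479 CPM in OBF1 shRNA libraries and 2672 to 2745 CPM in control libraries. MS4A1 carried most of that difference, at 2078 CPM in OBF1 shRNA and 702 CPM in control libraries. Of 7 listed markers of germinal centre cells and Burkitt lymphoma, 6 were lower and 1 was higher, with summed levels of 937 to 949 CPM in OBF1 shRNA libraries and 1347 to 1386 CPM in control libraries. Among all tested genes, 37.5% were called higher and 37.9% lower, by the test given below. The 15 myeloid markers summed to between 2.39 and 2.50 CPM in OBF1 shRNA libraries and between 2.32 and 2.53 CPM in control libraries, with CD163 and MPO at 0 reads. Of the 3 tested, ITGAM was 1.96-fold higher, LYZ was lower, and CSF1R was not called. LYZ had 6, 4 and 4 reads in OBF1 shRNA libraries, so it passed the filter only through the control libraries. The 13 T and NK cell markers, of which NKG7 was the only member tested, summed to between 0.950 and 1.08 CPM in OBF1 shRNA libraries and between 0.192 and 0.298 CPM in control libraries, with CD3D and CD2 at 0. NKG7 had 1, 7 and 6 reads in control libraries, so it passed the filter only through the OBF1 shRNA libraries. Of 10 plasmacytoid dendritic cell markers, CLEC4C and GZMB had 0 reads, and JCHAIN and TCF4 made up nearly all of a sum of 572 to 588 CPM in OBF1 shRNA libraries and 674 to 681 CPM in control libraries. The 3 tested genes of that list differed in direction: JCHAIN was lower, TCF4 was 1.17-fold higher, and LILRA4 was higher at 1.49 CPM in OBF1 shRNA and 0.197 CPM in control libraries. LILRA4 had 5, 7 and 7 reads in control libraries, so it too passed the filter only through the OBF1 shRNA libraries. The 15 markers of 293T cells, which packaged the virus, summed to between 5.32 and 6.58 CPM in OBF1 shRNA libraries and between 4.44 and 5.36 CPM in control libraries. A count of 0 allows up to 3 reads, or between 0.0893 and 0.105 CPM in these libraries. The part of other cells in the results below was not tested, and in bulk RNA fewer cells with a transcript and less of it per cell cannot be told apart.

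OBF1 knockdown was accompanied by higher transcript of all 8 IRF members, with sizes that ranged from 12.7-fold for IRF4 to 1.05-fold for IRF8. IRF4, IRF5 and IRF7 rose at least 2.66-fold, IRF9 and IRF2 rose 1.34-fold and 1.26-fold, and IRF3, IRF1 and IRF8 rose by at most 1.10-fold. All 8 were called higher by edgeR's quasi-likelihood test at a Benjamini-Hochberg adjusted p under 0.05, where 37.5% of all tested genes were called higher and 37.9% lower, 75.4% in all. Their median log2 fold change was 0.37, against -0.01 for all tested genes. The 2 groups did not overlap for 7 of the 8, while 76.6% of tested genes did not overlap, 38% with the OBF1 shRNA libraries higher. The 3 members that more than doubled compare with 6.59% of tested genes that were called higher and changed at least 2-fold. The same 3 were called when the test was against a 1.5-fold change (edgeR's glmTreat), which called 9.83% of tested genes higher and 6.55% lower. The count of 8 depended on scaling. With library sizes alone, which shifts all log2 fold changes by -0.11 and gives 3476 genes higher and 5778 lower in place of 4508 and 4550, 5 members were called higher and none lower.

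**Figure D1:**
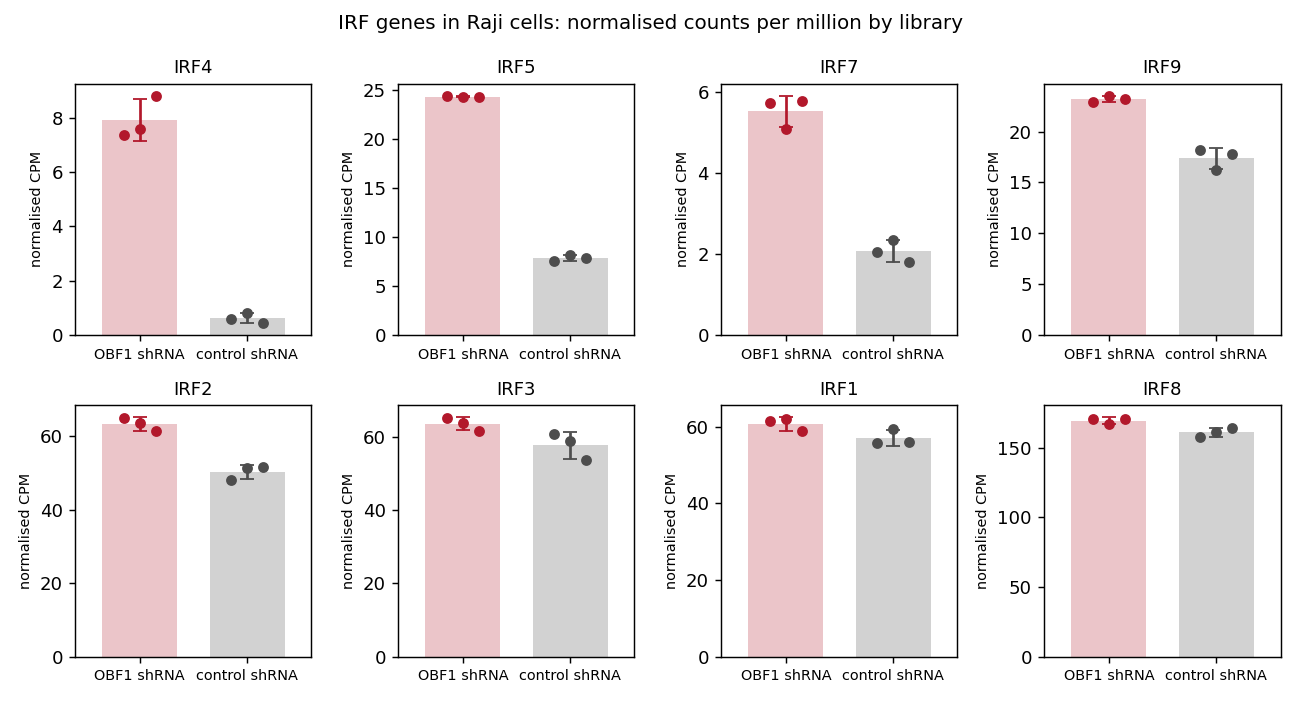
Normalised CPM (vertical axes, each from 0) of the 8 members in OBF1 shRNA and control shRNA libraries; points are libraries, bars the mean of 3 and error bars the SD. The 3 OBF1 shRNA libraries lie far above the controls for IRF4, IRF5 and IRF7, clearly above them for IRF9 and IRF2, and close to them for IRF3, IRF1 and IRF8.

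IRF4 and IRF8 are the lymphoid members and the closest relatives in the family, and they differed in both level and change. IRF4, which drives plasma cell differentiation at high dose, had 209, 231 and 276 reads in the OBF1 shRNA libraries, against 19, 27 and 14 reads in the control libraries. On the normalised scale this was 7.35, 7.58 and 8.81 CPM in OBF1 shRNA libraries, against 0.608, 0.804 and 0.444 CPM in control libraries. Every OBF1 shRNA library lay far above every control library, and even the lowest control count was above the filter's minimum of 10 reads. The log2 fold change was 3.66 (SE 0.16, edgeR adjusted p = 4.61e-13), and 70 of the 12010 tested genes had a larger one. Leaving out 1 library at a time moved it between 3.48 and 3.91.

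IRF8, which supports the germinal centre programme, was abundant in both groups. It measured 170.7, 167 and 170.7 CPM in OBF1 shRNA libraries, against 158, 161 and 164 CPM in control libraries. The groups did not overlap, but the lowest OBF1 shRNA library lay within 3 CPM of the highest control library. The log2 fold change of 0.07 (SE 0.03, edgeR adjusted p = 0.0222) was not stable: with library sizes alone it was -0.036 (adjusted p = 0.225), and the call was also lost with upper-quartile factors (adjusted p = 0.0824). It was lost as well without OBF1 shRNA replicate 1 (adjusted p = 0.0535), OBF1 shRNA replicate 3 (0.0686) or control replicate 1 (0.0995), out of a range of 0.0145 to 1 over all alternatives.

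Because both members were measured in the same library, their ratio does not depend on scaling. Per gene length, IRF4 stood to IRF8 as 0.0248, 0.0262 and 0.0297 in OBF1 shRNA libraries, against 0.00222, 0.00287 and 0.00156 in control libraries. The ratio was thus 12.5-fold higher in OBF1 shRNA libraries, with no overlap (two-sided exact permutation test over libraries, p = 0.1, the smallest that 3 against 3 can give). IRF8 transcript still exceeded IRF4 transcript in every library.

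IRF5 and IRF7, which carry signals from Toll-like receptors and other nucleic acid sensors, both rose, while IRF3, the third member of that group, barely differed. IRF5 measured 24.5, 24.3 and 24.3 CPM in OBF1 shRNA libraries, against 7.52, 8.15 and 7.87 CPM in control libraries. Replicates lay within 1 CPM of each other, and the groups were well apart. The log2 fold change was 1.63 (SE 0.06, edgeR adjusted p = 3.52e-14), a 3.10-fold rise.

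IRF7, the member that amplifies type I interferon production, measured 5.73, 5.09 and 5.78 CPM in OBF1 shRNA libraries, against 2.05, 2.35 and 1.81 CPM in control libraries. The lowest OBF1 shRNA library was above the highest control library by over 2 CPM. It rose by 1.41 on the log2 scale (SE 0.12, edgeR adjusted p = 8.64e-09), on the strength of 57 to 79 reads per control library.

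IRF3, which starts the type I interferon response from a constitutive pool of protein, measured 65.1, 63.7 and 61.6 CPM in OBF1 shRNA libraries, against 60.6, 58.9 and 53.5 CPM in control libraries. The groups lay side by side without overlap, about 1 CPM apart at their nearest. Its log2 fold change was 0.14 (SE 0.04, edgeR adjusted p = 0.00904), but 0.029 with library sizes alone (adjusted p = 0.568), and the call was lost without control replicate 3 (adjusted p = 0.0533), out of 0.00104 to 1 over all alternatives. BCL2L12, a gene that overlaps IRF3 in the RefSeq gene table, measured 38.1, 35.04 and 36.4 CPM in OBF1 shRNA libraries, against 31.9, 30.9 and 29.99 CPM in control libraries. The strand setting of the counting is not given in the sources used here, so reads of this pair may not have been kept apart.

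IRF1, a short-lived activator induced by interferon gamma, and IRF2, known to antagonise it at shared sites, were near each other in CPM. IRF1 measured 61.4, 62.0 and 58.8 CPM in OBF1 shRNA libraries, against 55.7, 59.4 and 55.9 CPM in control libraries. The groups overlapped, since OBF1 shRNA replicate 3 lay below control replicate 2. Its call rested on a log2 fold change of 0.09 (SE 0.04, edgeR adjusted p = 0.0434) and was lost with DESeq2 (adjusted p = 0.0729), upper-quartile factors (0.104) and library sizes alone (log2 fold change -0.018, adjusted p = 0.677). It was also lost without OBF1 shRNA replicate 1 (adjusted p = 0.1002) or 2 (0.122) and without control replicate 1 (0.135) or 3 (0.103), out of 0.0083 to 1 over all alternatives.

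IRF2 measured 64.9, 63.8 and 61.3 CPM in OBF1 shRNA libraries, against 48.2, 51.3 and 51.5 CPM in control libraries. The groups did not overlap, and the log2 fold change was 0.33 (SE 0.04, edgeR adjusted p = 5.52e-07). Per gene length, IRF1 stood to IRF2 as 0.547, 0.562 and 0.554 in OBF1 shRNA libraries, against 0.668, 0.670 and 0.627 in control libraries. This ratio fell by 0.24 on the log2 scale with no overlap between groups (two-sided exact permutation test, p = 0.1, the smallest possible here).

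IRF9, the DNA-binding subunit of an interferon-activated complex with STAT2, measured 22.9, 23.5 and 23.2 CPM in OBF1 shRNA libraries, against 18.2, 16.2 and 17.8 CPM in control libraries. The OBF1 shRNA libraries lay within 1 CPM of each other and above every control library. The log2 fold change was 0.42 (SE 0.06, edgeR adjusted p = 2.29e-06). Its partner STAT2, named after its values were seen, averaged 34.5 CPM in OBF1 shRNA and 35.5 CPM in control libraries (log2 fold change -0.04, edgeR adjusted p = 0.49).

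**Figure D2:**
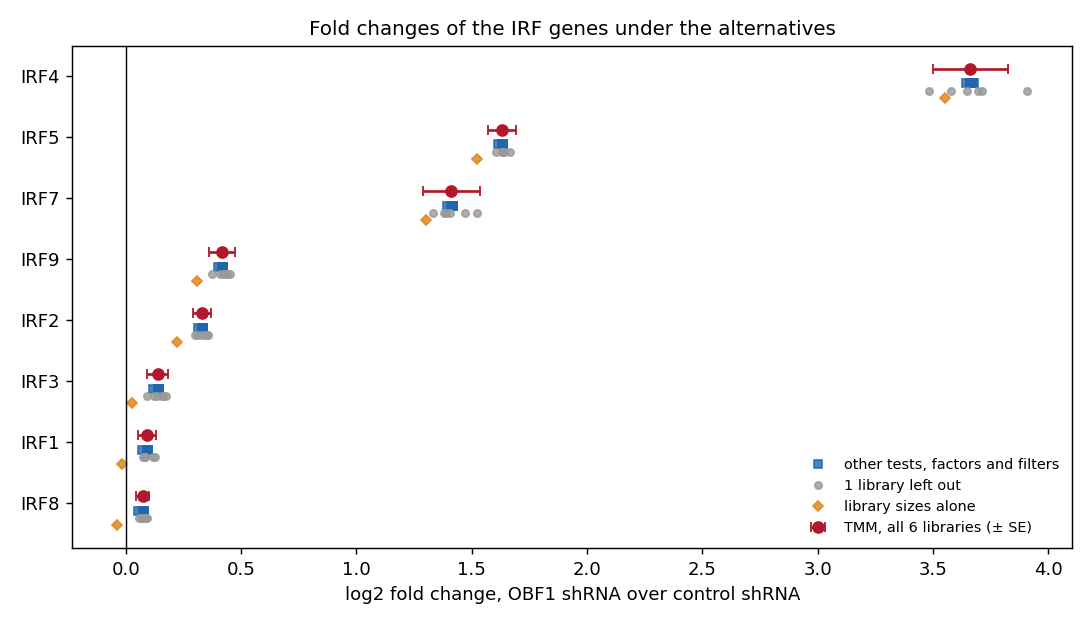
Log2 fold change of OBF1 shRNA over control shRNA (horizontal axis) for each member, ordered from IRF4 at the top to IRF8. Red points with SE bars are the edgeR estimates with TMM scaling, and the smaller marks are other tests, factors and filters, each library left out, and library sizes alone. IRF1 and IRF8 fall just below 0 with library sizes alone, whereas IRF4 stays between 3.48 and 3.91.

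Levels were then compared between members as RPKM, the CPM divided by the deposited gene length in kilobases, since CPM alone favours long transcripts. The order was the same in both groups: IRF8, IRF2, IRF3, IRF1, IRF9, IRF5, IRF7 and IRF4, from high to low. No neighbours in that order overlapped between libraries of a group. IRF8 averaged 46.1 ± 0.617 RPKM in OBF1 shRNA libraries and 43.9 ± 0.902 RPKM in control libraries (SD, n = 3 each), above 86.9% and 86.7% of tested genes. IRF5 averaged 6.51 ± 0.0241 RPKM in OBF1 shRNA libraries and 2.10 ± 0.0846 RPKM in control libraries, above 41.3% and 23.1% of tested genes. IRF4 averaged 1.24 ± 0.123 RPKM in OBF1 shRNA libraries and 0.0971 ± 0.0282 RPKM in control libraries, above 17.1% and 2.28% of tested genes.

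Summed over the 8 members, the family held 130.4 ± 1.54 RPKM in OBF1 shRNA libraries and 109.9 ± 1.17 RPKM in control libraries (SD, n = 3 each). IRF8 made up 35.4% ± 0.585 of that sum in OBF1 shRNA libraries and 39.9% ± 0.755 in control libraries. IRF2 made up 21.3% ± 0.392 in OBF1 shRNA libraries and 20.02% ± 0.618 in control libraries. The shares of the 3 members that rose most remained small: IRF5 held 4.99% in OBF1 shRNA and 1.91% in control libraries, IRF7 held 1.91% and 0.846%, and IRF4 held 0.953% and 0.0882%, in the same order of groups. The largest relative changes were thus in the least abundant members.

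**Figure D3:**
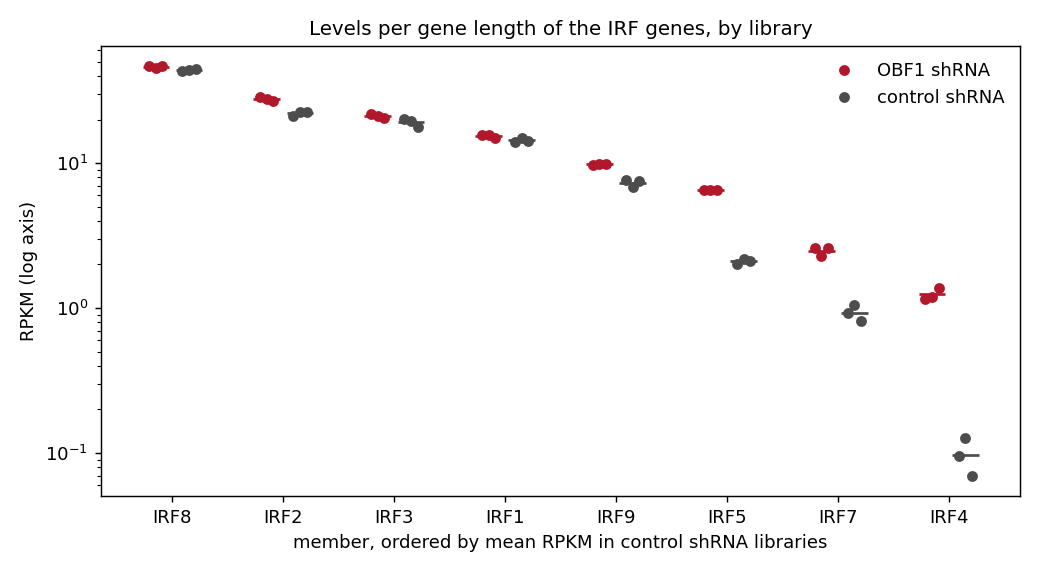
RPKM on a log axis for the 8 members, ordered by their mean in control libraries; points are libraries and short lines are means of 3. The members keep the same order in both groups, and the gap between OBF1 shRNA and control widens at the low end, with IRF4 at 1.24 and 0.0971 RPKM.

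IRF4, BATF and JUN proteins act together on DNA, as do IRF4 or IRF8 with PU.1 or SPIB, and these partners were mostly higher too. Of 13 listed partners, 11 were tested, 10 were called higher and none lower, where 37.5% of all tested genes were higher and 37.9% lower, and the median log2 fold change was 0.90. With library sizes alone, 8 partners were called higher and 1 lower, beside 3476 higher and 5778 lower among all 12010 tested genes. BATF measured 31.1, 32.2 and 35.04 CPM in OBF1 shRNA libraries, against 7.84, 8.39 and 7.65 CPM in control libraries, which put the groups far apart. It rose 4.12-fold (log2 fold change 2.04, SE 0.06, edgeR adjusted p = 3.28e-15). JUNB rose 2.60-fold to 75.3 ± 8.38 CPM in OBF1 shRNA libraries, against 29.0 ± 3.34 CPM in control libraries (SD, n = 3 each). Among the Ets partners, SPIB averaged 318 ± 9.31 CPM in OBF1 shRNA and 140 ± 5.69 CPM in control libraries, and SPI1, encoding PU.1, averaged 36.3 ± 3.38 CPM in OBF1 shRNA and 19.5 ± 0.955 CPM in control libraries. IKZF1, which encodes the lymphoid factor Ikaros, rose 2.06-fold. SWAP70 and DEF6, relatives that bind IRF4 protein, rose 1.92-fold and 1.18-fold. JUND rose 1.24-fold. JUN, whose groups overlapped, rose 1.21-fold (edgeR adjusted p = 0.0249), a call lost without OBF1 shRNA replicate 2 (adjusted p = 0.059) or 3 (0.151) and without control replicate 2 (0.0511) or 3 (0.0675). JUN also lost it with DESeq2 (adjusted p = 0.0693), and JUN and DEF6 lost their calls with library sizes alone (0.164 and 0.0514). BATF2 and BATF3 had at most 6 reads in any library and were not tested.

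Proteins that restrain IRFs or interferon signalling were listed next. Of 11, 9 were tested, 5 were called higher and 1 lower, beside 37.5% and 37.9% of all tested genes, and the median log2 fold change was 0.38. The count of lower genes depended on scaling, with 5 higher and 4 lower with library sizes alone. That setting called 3476 higher and 5778 lower among all 12010 tested genes. IRF2BP2, a corepressor that binds IRF2, rose 3.52-fold, with 49.9 ± 0.718 CPM in OBF1 shRNA and 14.2 ± 0.552 CPM in control libraries (SD, n = 3 each). Its relatives, named after their values were seen, were not higher: IRF2BP1 had a log2 fold change of -0.09 (edgeR adjusted p = 0.32), and IRF2BPL fell by 0.53 on the log2 scale (adjusted p = 0.00047). TNFAIP3, the ubiquitin-editing enzyme A20, rose 11.7-fold to 322 ± 2.68 CPM in OBF1 shRNA libraries, against 27.6 ± 0.350 CPM in control libraries. SOCS1, an inhibitor of JAK kinases, rose 1.496-fold, and RBCK1, a subunit of the linear ubiquitin ligase, 1.41-fold.

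The sensors, adaptors and kinases that activate IRF3, IRF5 and IRF7 moved both ways, as tested genes did in general. Of 25 listed, 22 were tested, and 13 were called higher and 8 lower, against 37.5% higher and 37.9% lower among all tested genes. Among the lower genes, CGAS had 12, 7 and 9 reads in OBF1 shRNA libraries and passed the filter only through the control libraries. The median log2 fold change was 0.21. MYD88, the adaptor that links Toll-like receptors to IRF5 and IRF7, rose 1.81-fold to 131 ± 2.03 CPM in OBF1 shRNA libraries, against 72.2 ± 2.43 CPM in control libraries (SD, n = 3 each). IKBKE, a kinase of IRF3 and IRF7, rose 2.38-fold, while AZI2, an adaptor of the same kinases, was lower at 21.0 ± 1.17 CPM in OBF1 shRNA and 38.8 ± 0.115 CPM in control libraries. The RNA sensor IFIH1 rose 1.36-fold. Of the other members, named after their values were seen, the kinase TBK1 fell by 0.14 on the log2 scale (edgeR adjusted p = 0.002). TASL, the adaptor that recruits IRF5 at the endolysosome, rose by 0.94 (edgeR adjusted p = 5.3e-08), with 9.30 CPM in OBF1 shRNA and 4.83 CPM in control libraries. Of the endosomal receptors, TLR9 rose by 0.40 and TLR7 by 1.11, and TLR3 fell by 1.41 on the same scale.

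Interferon genes themselves were close to undetected. None of the 8 listed interferons passed the filter, and none had more than 8 reads in a library. IFNB1, named after its counts were seen, had 3, 1 and 4 reads in OBF1 shRNA libraries, against 5, 8 and 5 reads in control libraries. The 9 receptor and kinase genes tested gave 5 higher and 4 lower, with a median log2 fold change of 0.52, where 37.5% of all tested genes were higher and 37.9% lower. TYK2, a kinase of the type I receptor, rose 2.81-fold, with 307 ± 1.72 CPM in OBF1 shRNA and 109.5 ± 2.96 CPM in control libraries (SD, n = 3 each). JAK2 rose 1.85-fold, and the interferon gamma receptor chains IFNGR1 and IFNGR2 rose 2.04-fold and 1.43-fold. The type I receptor chains, named after their values were seen, were lower: IFNAR1 fell by 0.16 and IFNAR2 by 0.35 on the log2 scale (edgeR adjusted p = 0.0004 and 2.2e-05).

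Of 38 listed interferon-stimulated genes, a class with ISRE-type control downstream of IRF9, 28 were tested. Of these, 21 were called higher and 3 lower, beside 37.5% and 37.9% of all tested genes, and the median log2 fold change was 0.84. Among the higher genes, OASL had 3, 8 and 7 reads in control libraries, and MX2 had 6, 5 and 4. Both passed the filter only through the OBF1 shRNA libraries, so they could hardly have been called lower. IFITM2, also counted as higher, had 23, 19 and 11 reads in OBF1 shRNA libraries, against 9, 13 and 11 reads in control libraries. Its groups overlapped, and its call was close to the threshold (edgeR adjusted p = 0.0495). The 10 that were not tested had at most 12 reads in a library, MX1, RSAD2 and USP18 among them, named after their counts were seen. TRIM22, an antiviral ubiquitin ligase, measured 33.1, 33.3 and 36.7 CPM in OBF1 shRNA libraries, against 8.80, 8.10 and 9.87 CPM in control libraries, so every OBF1 shRNA library was over 3 times the highest control library. IFIT3, which binds viral RNA complexes, averaged 38.4 ± 1.92 CPM in OBF1 shRNA and 6.41 ± 0.454 CPM in control libraries (SD, n = 3 each). OAS2, an activator of RNase L, rose 2.25-fold, and BST2, which tethers virions, rose 1.67-fold. The 3 that fell, ISG20, SAMD9 and IFI44, were named after their values were seen. ISG20 averaged 28.4 CPM in OBF1 shRNA and 64.3 CPM in control libraries. In the same order of groups, SAMD9 averaged 71.8 and 98.4 CPM, and IFI44 averaged 5.74 and 6.90 CPM. 3 of the 38 genes also stand in the lists above.

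Genes of class I antigen presentation and interferon gamma responses, which IRF1 is known to activate, were all higher where tested. All 21 tested of 24 listed were called higher, where 37.5% of all tested genes were, with a median log2 fold change of 0.89. Among them, GBP2 had 3, 4 and 3 reads in control libraries. It passed the filter only through the OBF1 shRNA libraries, so it could hardly have been called lower. HLA-E rose 2.24-fold, with 348 ± 3.49 CPM in OBF1 shRNA and 155 ± 4.43 CPM in control libraries (SD, n = 3 each), and HLA-F rose 5.96-fold. HLA genes are similar in sequence, so single values are uncertain. CXCL10, a chemokine induced by interferons, averaged 33.8 ± 0.501 CPM in OBF1 shRNA and 6.51 ± 0.547 CPM in control libraries. CIITA, the class II transactivator and also a listed target of IRF4 and IRF8, rose 3.32-fold.

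Of 14 listed targets of IRF4 or IRF8 in germinal centre and plasma cells, 12 were tested. Of these, 4 were called higher and 7 lower, beside 37.5% and 37.9% of all tested genes, and the median log2 fold change was -0.51. The list mixes genes that these factors activate with genes that they repress, so its median does not measure their activity. Among the 4 higher genes, PAX5 and EBF1 also stand among the B cell markers above. BCL6, also among the germinal centre markers above, is the germinal centre repressor that IRF8 activates and IRF4 represses. It averaged 139.7 ± 0.629 CPM in OBF1 shRNA and 261 ± 7.76 CPM in control libraries (SD, n = 3 each). MDM2, the p53 ligase that IRF8 is known to activate, averaged 157 ± 2.70 CPM in OBF1 shRNA and 297 ± 8.39 CPM in control libraries. XBP1, of the secretory programme, was 2.27-fold lower in OBF1 shRNA libraries. PRDM1, the plasma cell regulator that IRF4 induces, was named after its values were seen: it averaged 0.733 CPM in OBF1 shRNA and 6.81 CPM in control libraries. A link between PRDM1 and IRF4 was not tested.

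NF-κB subunits are known to bind the IRF4 promoter. Of the 5, 4 were called higher and 1 lower, where 75.4% of all tested genes were called in either direction, with a median log2 fold change of 0.60. NFKB2 averaged 274 ± 5.30 CPM in OBF1 shRNA and 106 ± 2.12 CPM in control libraries (SD, n = 3 each), a 2.58-fold rise. NFKB1 rose 2.05-fold, REL 1.52-fold and RELB 1.45-fold, and RELA fell by 0.17 on the log2 scale (edgeR adjusted p = 0.000144).

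**Figure D4:**
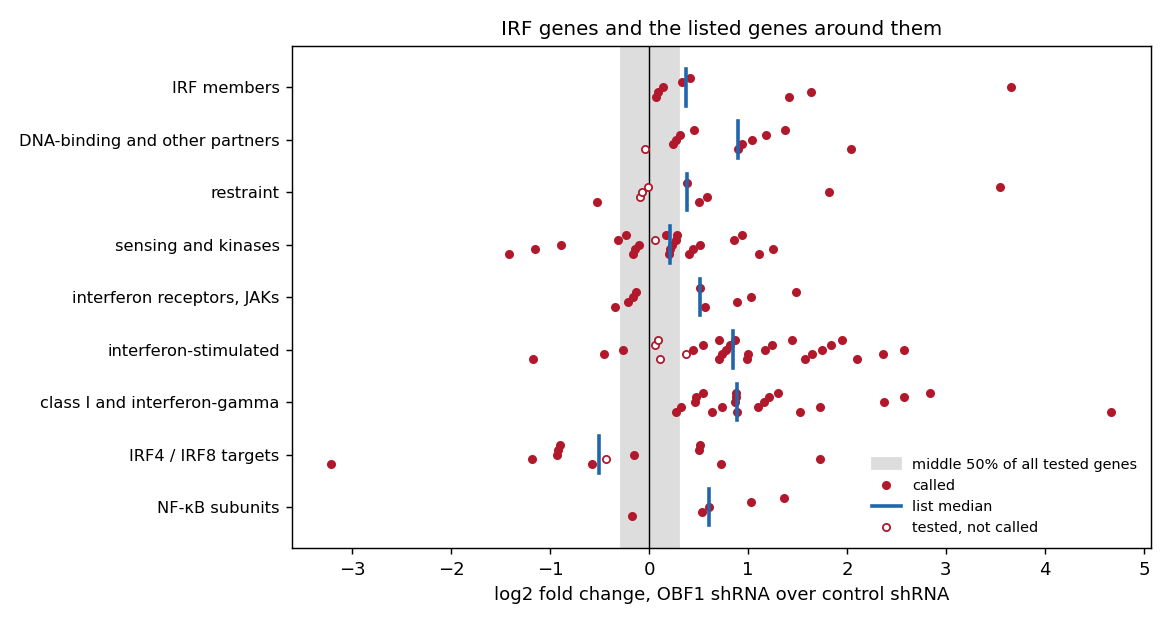
Log2 fold change of OBF1 shRNA over control shRNA (horizontal axis) for the tested genes of each list (rows); filled points were called, open points were tested and not called, blue lines are list medians, and the grey band holds the middle 50% of all tested genes, from -0.29 to 0.30. The class I list lies wholly above 0, and the IRF4 and IRF8 targets have a median of -0.51.

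The genes whose pattern over the 6 libraries lay nearest to that of IRF4 were OLFML2A, SYNE3 and MPEG1, by Euclidean distance between centred log2 CPM (distances of 0.357, 0.389 and 0.417 with 0.01 CPM added). MPEG1, which encodes the pore-forming protein perforin-2, measured 14.0, 13.8 and 13.1 CPM in OBF1 shRNA libraries, against 1.02, 1.64 and 0.952 CPM in control libraries, and the groups lay far apart. OLFML2A averaged 4.92 ± 0.846 CPM in OBF1 shRNA and 0.351 ± 0.0963 CPM in control libraries, and SYNE3, of the nuclear envelope, 4.12 ± 0.243 CPM in OBF1 shRNA and 0.331 ± 0.0943 CPM in control libraries (SD, n = 3 each). With 2 groups of 3 libraries, this likeness is mostly that of the fold change.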

How the data were processed

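Poly(A) RNA of 6 Raji libraries was analysed. The authors deposited raw read counts per gene with gene lengths. Builds hg19 and mm9 are named, per the submitters' processing notes, without a role. The sources used here do not name the aligner, counter, annotation or strand setting. Of 23459 rows, 23308 matched a symbol in the RefSeq gene table (GRCh38.p14), and 151 without one stayed in the tests. Counts were fitted across all genes in R 4.3.3 with edgeR 4.0.16 (filterByExpr with min.count 10 and min.total.count 15, TMM scaling, glmQLFTest on all 6 libraries without covariates), with Benjamini-Hochberg adjustment over 12010 genes. SE is the log2 fold change divided by the square root of F. The code was tested on simulated data. Replicate pairs differed by a chi-square per degree of freedom of 1.84 to 3.17, so none looked like the same library deposited again. Ratios were tested in SciPy 1.17.1. Alternatives were DESeq2 1.42.0, limma-voom (limma 3.58.1), glmTreat, other scaling factors and filters, a replicate block, and each library left out.

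Members and gene lists were chosen with earlier results of these data known. Besides the members, POU2AF1, POU2F1 and POU2F2, the text names the called partners (1 is not reported here) and NF-κB subunits, the called genes with the smallest p-values (up to 4) of each other list, and the 3 genes nearest to IRF4. Any other gene was named after its values were seen, as were the marker genes at 0 reads.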

Additional observations from a re-analysis of the deposited data

How the results depend on the processing

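With glmTreat, which tests against a 1.5-fold change, 1967 of 12010 tested genes were called and the members fell to 3 (IRF4, IRF5 and IRF7). It called 9.83% of tested genes higher and 6.55% lower. Of the tested genes of each list, 6 of 11 partners, 2 of 9 restraining genes and 3 of 9 of receptors were called. Of sensing, 6 of 22 were called (4 higher, 2 lower), and of the targets of IRF4 or IRF8, 7 of 12 (2 higher, 5 lower). The other lists gave 2 of 5 NF-κB subunits, 18 of 28 interferon-stimulated genes (17 higher, 1 lower) and 15 of 21 of the class I list. Where no split is given, all were higher. Trying the alternatives on these lists and on the other named genes was added after seeing the data. With library sizes alone 5 members were called, and IRF1 and IRF8 turned to -0.018 and -0.036 on the log2 scale. Over all 15 alternatives the log2 fold change of IRF4 ranged from 3.48 to 3.91, of IRF5 from 1.52 to 1.66 and of IRF7 from 1.30 to 1.52, all called higher. IRF9 and IRF2 lost their calls with glmTreat only. With 1 library left out, 6 to 8 members and 8632 to 8974 genes were called. Of 660 values of the 44 other named genes, 0 reversed and 20 lost the call. Most of the 44 were picked in these same data for being called with small p-values, a choice that favours stable calls. Genes named after their values were seen are not among the 44. With the replicate number as a block, 8759 genes and 7 members were called, and IRF1 and JUN were not (adjusted p = 0.0523 and 0.0544). Same-numbered libraries of the groups had correlations of 0.0279, -0.195 and -0.13 between their deviations, and none matched its own number best, so no shared effect of the number was seen. This check cannot show whether same-numbered libraries were prepared together. Depth limits IRF4 most, with 14 to 27 reads per control library.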

Other observations

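Among genes of the interferon gamma response, 3 of the 4 listed guanylate-binding proteins, GTPases that attack vacuoles of intracellular pathogens, passed the filter. They were picked after their values were seen, and GBP5, with at most 10 reads in a library, was not tested. GBP1 averaged 7.57 CPM in OBF1 shRNA and 1.06 CPM in control libraries (edgeR adjusted p = 3.4e-12). GBP4 averaged 2.22 and 0.771 CPM, in the same order of groups (edgeR adjusted p = 8.8e-07). GBP2 averaged 2.74 and 0.103 CPM, in the same order, with only 3, 4 and 3 reads in control libraries. It thus passed the filter only through the OBF1 shRNA libraries, where it was high. The class I transactivator NLRC5 and its class II counterpart CIITA had log2 fold changes of 0.27 (SE 0.05) and 1.73 (SE 0.02). The difference between these genes was not tested.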
